A study of Equus caballus with 10 samples.

Results

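Aggrecan, the large cartilage-type proteoglycan encoded by ACAN, and SOX6, a partner of the chondrogenic transcription factor SOX9, were both lower in equine tenocytes treated with IL-1β plus PF-06650833 than in the same lines treated with PF-06650833 alone, and had few reads there. SOX9 and the link protein gene HAPLN3 were lower as well, SOX5 was higher, and VCAN, RUNX2, MATN3 and CHAD did not pass the thresholds used. These genes belong to a set of 10, ACAN, VCAN, HAPLN1, HAPLN3, SOX5, SOX6, SOX9, RUNX2, MATN3 and CHAD, taken by symbol from the 29196 genes of the deposited table. The set was chosen by earlier measured values of the comparison between the treatments, so the differences between treatments in these 10 genes are given as a description. Where one of them is called differentially expressed, this says that it passed the thresholds used for all genes, which is not independent evidence, and no p is printed for it.

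The data were from primary tenocytes of adult horses, isolated from the superficial digital flexor tendon, of 5 lines from different donors, called donors 1 to 5 here. Each line gave 1 library with PF-06650833 alone and 1 library with IL-1β plus PF-06650833, so there were 5 libraries in each group and 10 in all. PF-06650833 is an inhibitor of IRAK-4, a kinase that carries the signal of the IL-1 receptor, and both groups received it daily at 100 nM. IL-1β, an inflammatory cytokine, was given at 17 ng/ml every 3 to 4 days, and the cells were in collagen type I gels for 14 days. Several gels were pooled for each library. Both groups thus carry the inhibitor, the cells are passaged cells in a gel rather than tendon tissue, and libraries without PF-06650833 were not used here. The groups are called inhibitor alone and IL-1β added in what follows, and an IL-1β library or inhibitor library is a library of that group.

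Aggrecan and versican are lecticans, proteoglycans whose core protein carries chondroitin sulfate chains and binds hyaluronan, and link proteins of the HAPLN family hold that complex together. In cartilage the resulting gel takes up water and resists compression, and in tendon aggrecan is known from compressed regions. SOX9 starts the chondrogenic programme and, together with SOX5 and SOX6, activates ACAN and other cartilage genes, whereas RUNX2 drives hypertrophy and bone formation. Matrilin-3 (MATN3) and chondroadherin (CHAD) are smaller matrix proteins of cartilage.

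Values are deposited log2 expression values. Absence of reads corresponds to 3.43 on this scale, and a difference of 1 is a doubling except at low values, where differences are compressed. Estimated depth overlapped between the groups, at 26429492 to 35715699 reads per library with inhibitor alone and 26717086 to 33375704 with IL-1β added. IL6, the check that IL-1β acted in the presence of the inhibitor, had a log2 fold change of 8.79. Differentially expressed here means an adjusted p below 0.05 from limma together with a log2 fold change of 1 or more in size, and fold changes are IL-1β added minus inhibitor alone. By this rule 6.68% of the 17992 tested genes were differentially expressed, 3.57% lower and 3.11% higher. With the donor as a replicate block the share was 8.26%. Of the 10 genes, 9 passed the filter on low values, and 5 of these were differentially expressed with and without the block. These were 4 lower genes and 1 higher gene, each with the same direction in all 5 donors. Because the genes were chosen on this contrast, nothing is read from these counts against those shares. Bulk libraries cannot tell fewer cells of a type apart from less RNA per cell.

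**Figure D1:**
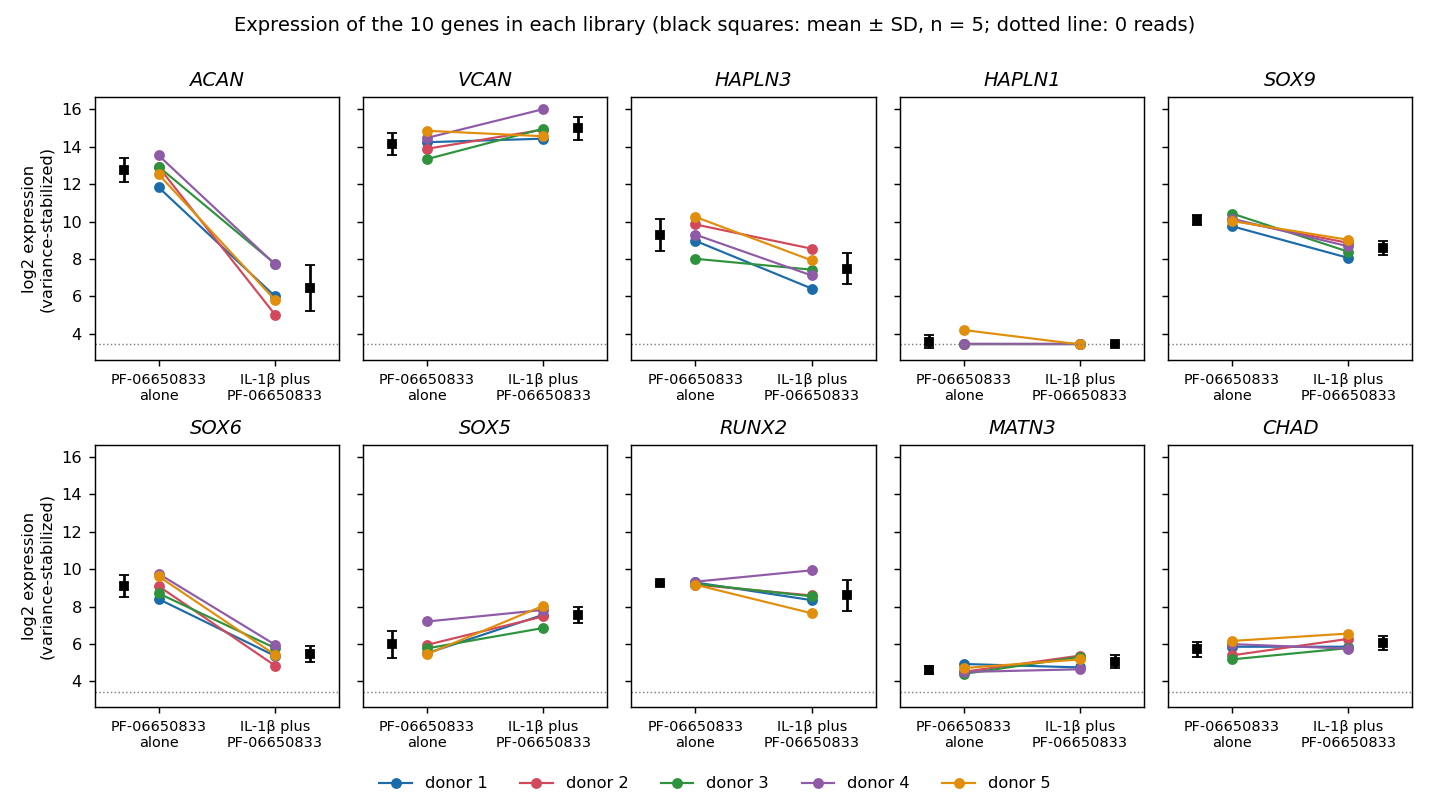
Deposited log2 expression (vertical axis) of the 10 genes in each of the 10 libraries, by treatment, with a line joining the libraries of each donor and black squares for the mean ± SD (n = 5). ACAN, SOX6 and SOX9 have groups that do not overlap, and in VCAN and RUNX2 the line of 1 donor runs against the other lines.

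ACAN, which encodes the core protein of aggrecan, was at 11.83, 12.93, 12.93, 13.54 and 12.53 in donors 1 to 5 with inhibitor alone. With IL-1β plus PF-06650833 it was at 6.01, 5.03, 7.75, 7.72 and 5.81. The groups lay far apart, with 4.08 between the lowest value of the first and the highest value of the second. The means were 12.75 (SD 0.63, n = 5) and 6.46 (SD 1.22, n = 5), and the log2 fold change of -6.29 (standard error, SE, 0.52) was the largest fall among the 17992 tested genes on the deposited scale. That rank depends on the scale, since with log2(normalized count + 0.5) it was -6.79 for ACAN and -7.26 for the matrix gene CILP2. In reads, ACAN went from between 3190 and 10956 per library to between 13 and 168. On the scale of normalized counts its mean was 7400 against 95.8, which is 77.2-fold lower. The difference within donors was between -7.90 in donor 2 and -5.19 in donor 3, so the extent of the fall varied between lines but its direction did not.

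VCAN encodes versican, the lectican of loose and provisional matrix. Its values in donors 1 to 5 were 14.25, 13.90, 13.35, 14.48 and 14.86 with inhibitor alone and 14.44, 14.92, 14.97, 16.02 and 14.57 with IL-1β added. The ranges overlapped, since donors 4 and 5 with inhibitor alone were above donor 1 with IL-1β added. The log2 fold change was 0.82 (SE 0.33), with higher values in 4 of 5 donors and a difference of -0.29 in donor 5, and VCAN was not differentially expressed. Levels of different genes were not compared, as no transcript lengths were used, but the distance between a pair of genes can be compared between treatments. The value of VCAN minus that of ACAN was 0.41 to 2.42 with inhibitor alone and 7.23 to 9.90 with IL-1β added. Most of this widening was the fall of ACAN, and it restates the differences of the single genes.

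HAPLN3 encodes a link protein and was at 8.98, 9.85, 8.01, 9.31 and 10.26 in donors 1 to 5 with inhibitor alone. With IL-1β plus PF-06650833 it was at 6.42, 8.55, 7.43, 7.12 and 7.93. The groups overlapped, because donor 3 was low with inhibitor alone and donor 2 high with IL-1β added, yet HAPLN3 was lower within every donor. The log2 fold change was -1.79 (SE 0.46), with differences within donors between -2.55 and -0.58. Treatment fits that left out 1 library or 1 donor had no donor term, here and below. HAPLN3 was no longer counted in 6 of these 15 fits. These were the fits without donor 1 (-1.60), donor 4 (-1.69) or donor 5 (-1.66), without the inhibitor library of donor 2 (-1.65) or donor 5 (-1.55), and without the IL-1β library of donor 1 (-1.52). HAPLN1, the link protein gene of cartilage, was at 3.43 in 9 libraries and at 4.20, about 3 reads, in donor 5 with inhibitor alone. It was therefore not tested, and no fold change is given.

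ACAN and HAPLN3 are neighbours on the chromosome in the RefSeq order of the horse assembly TB-T2T, with 0 protein-coding genes between them, and the other lectican genes also each lie next to a HAPLN gene. The BCAN and HAPLN2 pair had log2 fold changes of 1.31 (SE 0.25, adjusted p = 0.00604 from limma) and 1.08 (SE 0.17, adjusted p = 0.0021 from limma). Both genes of that pair were thus higher, both of the ACAN and HAPLN3 pair lower, and the VCAN and HAPLN1 pair had 1 gene that was not differentially expressed and 1 that was not tested. In the NCAN and HAPLN4 pair the log2 fold changes were -0.29 (adjusted p = 0.556 from limma) and 0.72 (adjusted p = 0.0456 from limma, below the minimum fold change). NCAN and BCAN had low values, with group means of at most 6.12, so their differences are understated on this scale. The pairs were set side by side after their values were known.

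**Figure D2:**
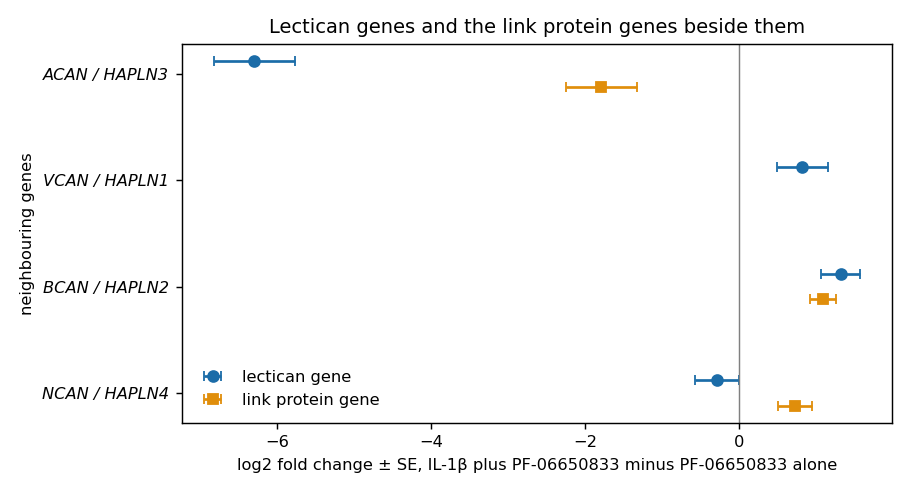
Log2 fold change with its SE for the 4 lectican genes and the HAPLN gene next to each. ACAN (-6.29) and HAPLN3 (-1.79) lie below 0, BCAN (1.31) and HAPLN2 (1.08) above 0, and HAPLN1 has no value because it was not tested.

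Of the SOX genes, SOX9 was at 9.75, 10.07, 10.44, 10.15 and 10.03 in donors 1 to 5 with inhibitor alone and at 8.06, 8.86, 8.39, 8.68 and 9.03 with IL-1β added. The groups did not overlap, and the gap between them was 0.73. The means were 10.09 (SD 0.24, n = 5) and 8.60 (SD 0.38, n = 5), a log2 fold change of -1.49 (SE 0.19), and the mean normalized count was 2.86-fold lower. SOX9 kept 199 to 428 reads per library with IL-1β added, against 741 to 1034 with inhibitor alone, so its transcript was still present.

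SOX6 was at 8.40, 9.09, 8.70, 9.75 and 9.61 with inhibitor alone and at 5.36, 4.84, 5.78, 5.96 and 5.42 with IL-1β added, donors 1 to 5 in order. Again the groups did not overlap, with a gap of 2.44. The log2 fold change was -3.64 (SE 0.30), the 26th largest fall of all tested genes on the deposited scale, and differences within donors lay between -4.25 and -2.92. Its reads were 278 to 775 per library with inhibitor alone and 10 to 31 with IL-1β added, and the mean normalized count was 21.0-fold lower.

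SOX5, which encodes the close relative of SOX6, differed in the other direction. It was at 5.50, 5.95, 5.76, 7.20 and 5.45 with inhibitor alone and at 7.56, 7.47, 6.85, 7.82 and 8.04 with IL-1β added. The groups overlapped only through donor 4, whose library with inhibitor alone was above that of donor 3 with IL-1β added. The log2 fold change was 1.58 (SE 0.35) and the mean normalized count 3.41-fold higher, from 23 to 116 reads per library to 82 to 207. The difference was above 0 in every donor, smallest in donor 4 (0.62) and largest in donor 5 (2.59). SOX5 was not counted without donor 1 (1.46), donor 2 (1.59) or donor 5 (1.32).

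The distance between the SOX5 and SOX6 values shifted in the same direction in each line. SOX5 minus SOX6 was -4.16 to -2.55 with inhibitor alone and 1.07 to 2.63 with IL-1β added. SOX9 minus SOX6 was 0.40 to 1.73 and then 2.61 to 4.02. These distances do not overlap between the treatments, and they depend on values that are not scaled by transcript length, so only their change between treatments is read. That change follows from the differences of the single genes given above. It is a description and adds no separate evidence.

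**Figure D3:**
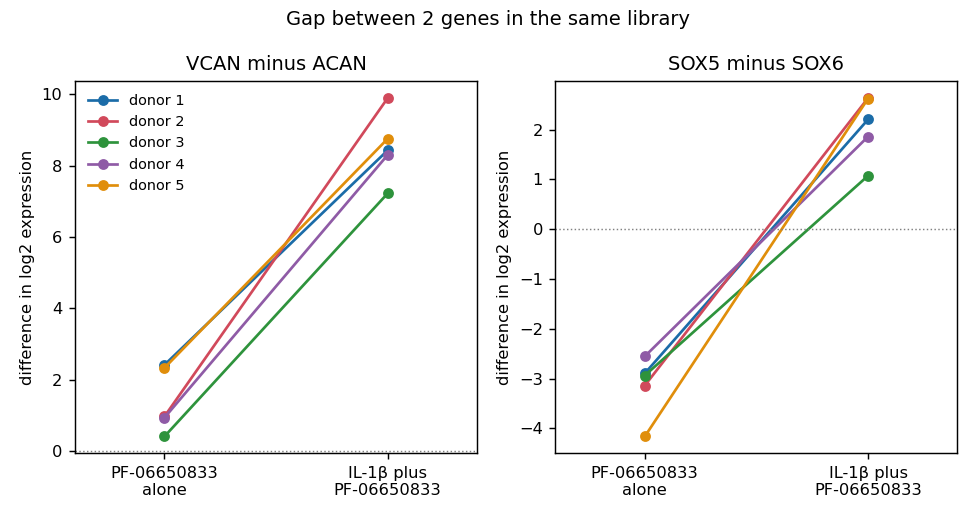
Difference in log2 expression between pairs of genes in each library, by treatment, with lines joining the libraries of a donor. VCAN minus ACAN lies between 0.41 and 2.42 with inhibitor alone and between 7.23 and 9.90 with IL-1β added, and SOX5 minus SOX6 is higher with IL-1β added in all 5 donors. The shifts follow from the differences of the single genes.

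RUNX2 was at 9.29, 9.17, 9.22, 9.33 and 9.17 in donors 1 to 5 with inhibitor alone. With IL-1β plus PF-06650833 it was at 8.34, 8.59, 8.54, 9.94 and 7.64. The lines were nearly alike with inhibitor alone (SD 0.07, n = 5) and spread out with IL-1β added (SD 0.83, n = 5), where donor 4 was above and the other 4 donors below all libraries of the first group. The log2 fold change was -0.62 (SE 0.33), with 0.61 in donor 4 and -1.53 in donor 5, and RUNX2 was not differentially expressed. The difference between the group SDs was not tested.

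The smaller matrix proteins had few reads. MATN3 averaged 4.61 (SD 0.21, n = 5) and 5.05 (SD 0.33, n = 5), with 4 to 11 and 6 to 20 reads per library, and a log2 fold change of 0.44 (SE 0.20). CHAD averaged 5.71 (SD 0.42, n = 5) and 6.04 (SD 0.36, n = 5), with 13 to 49 and 24 to 63 reads, and a log2 fold change of 0.33 (SE 0.25). Values of both genes were higher in 4 of 5 donors, the groups overlapped and neither gene was differentially expressed.

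Of the 9 tested genes, ACAN, SOX6 and SOX9 had groups that did not overlap, as did 12.7% of all tested genes. The same genes, with HAPLN3 and SOX5, were the 5 with 1 direction in all donors. Over the 9 genes the log2 fold changes had a median of -0.62, and over all tested genes of -0.0063.

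How the genes varied between lines is a measure on which the set was not chosen. In a limma F test of the donor term, 0 of the 9 genes differed between donors at an adjusted p below 0.05, as against 2.76% of all tested genes, and 2 of the 9, ACAN and HAPLN3, had an unadjusted p below 0.05, as against 20.2% of all tested genes. The adjusted p from limma was 0.185 for HAPLN3 and 0.221 for ACAN, and it was between 0.392 and 0.869 for the other 7. Treatment accounted for 94.1% of the variance of SOX6, 92.9% of that of ACAN and 86.9% of that of SOX9. These treatment shares restate the contrast on which the set was chosen and are a description. Donor accounted for 53.8% of the variance of CHAD, 41.8% of that of RUNX2, 31.9% of that of VCAN and 31.0% of that of HAPLN3. The share left after treatment and donor was 27.8%, 32.4%, 31.3% and 10.0% in these genes. For ACAN the donor share was 4.97% and the share left 2.08%. A large treatment share leaves less for the donor, so donor shares are not compared between genes. The donor test had 2 libraries for each line, and a p above the threshold does not show that lines were alike.

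**Figure D4:**
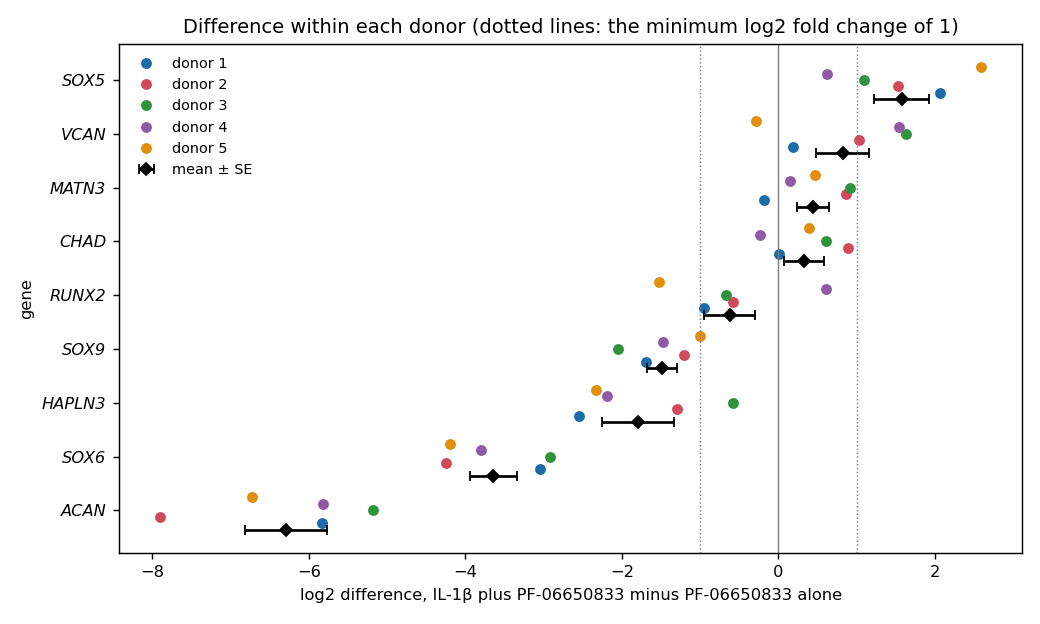
Difference in log2 expression between the treatments within each donor for the 9 tested genes. ACAN, SOX6, SOX9 and HAPLN3 are below 0 and SOX5 is above 0 in all 5 donors, while donor 5 for VCAN and donor 4 for RUNX2 lie on the other side of 0 from the other donors.

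The spread within groups was set against genes of similar level, taken as the mean over all 10 libraries. The pooled SD of ACAN was 0.97, and 96.1% of genes of like level had a lower SD. The same share was 90.1% for VCAN, 87.7% for HAPLN3 and 84.9% for RUNX2, but 59.4% for SOX6 and 14.9% for MATN3. For ACAN and SOX6 that mean falls between the groups, where neither gene had a library. Their shares therefore do not compare them with genes at their level in either group. The SD of ACAN was 0.63 with inhibitor alone and 1.22 with IL-1β added, where it had few reads.

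After centring on the group means, the 36 pairs among the 9 genes had Pearson correlations over the 10 libraries between -0.48 and 0.75, with a median of 0.12 and 22 pairs above 0. The highest were those of ACAN with SOX6 (0.75), VCAN with RUNX2 (0.68) and HAPLN3 with CHAD (0.66). ACAN had 0.15 with SOX5, -0.06 with SOX9 and -0.30 with HAPLN3. SOX9 had -0.03 with SOX6 and 0.35 with SOX5, and SOX5 had 0.36 with SOX6. These are descriptions, as the libraries share donors and depth. Among genes with a symbol and a mean of at least 8, the genes most like ACAN by this measure were TSC22D2 (0.99), ZNF711 (0.98) and HOXD13 (0.96). Those most like SOX6 were TMX4 (0.97), FAM160B2 (0.94) and TGFBR1 (0.94), and those most like SOX9 were ATPAF1 (0.96), ALDH1L1 (0.91) and ATP13A3 (0.90). For RUNX2, C1R (0.98) and ADAR (0.97) were among them. These 11 genes were not differentially expressed. TGFBR1 (-0.64, adjusted p = 0.0179 from limma) and ATP13A3 (0.50, adjusted p = 0.0305 from limma) had an adjusted p below 0.05 but were below the minimum fold change.

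The wider cartilage programme was read from 8 lists of other genes, of which 104 genes could be tested. Of these, 18 (17.3%) were differentially expressed, 11 lower and 7 higher, as against 6.68% of all tested genes. With the replicate block the count was 25, all 18 among them, and the share of all tested genes 8.26%. The same share of 6.68% applies to the counts of single lists below. Over the 104 genes the median log2 fold change was -0.12, and over all tested genes it was -0.0063. The lists were written with earlier results known. The count of 18 fell to 9 without donor 1, to 9 without donor 2, to 8 without donor 5 and to 11 without the IL-1β library of donor 1.

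Among the cartilage collagens 1 of 4 tested genes was lower and none was higher. This was COL11A1, a chain of the fibril-forming collagen XI, at 13.28 (SD 0.81, n = 5) and 9.81 (SD 1.33, n = 5), a log2 fold change of -3.46 (SE 0.59, adjusted p = 0.00344 from limma). COL2A1, the main collagen of cartilage, had at most 5 reads in any library and was not tested.

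Of 17 other cartilage matrix genes, 4 were lower and 2 higher. The largest falls were those of CILP2 (-4.31, adjusted p = 0.00276 from limma) and of COMP (-3.63, adjusted p = 0.00794 from limma), the pentameric matrix protein that binds collagen in tendon and cartilage. COMP was not counted without donor 2 (-3.13) or donor 5 (-3.24). With the replicate block and all donors its adjusted p was 0.00451 from limma. The other 2 lower genes were MATN2, a relative of MATN3, at -3.15 (adjusted p = 0.00554 from limma) and PRELP at -1.56 (adjusted p = 0.0219 from limma), both named after their values were seen. With the replicate block PRG4 (-3.28, adjusted p = 0.00947 from limma) and SCRG1 (-1.39, adjusted p = 0.0437 from limma) were lower as well. MATN2 was lower in 5 of 5 donors, while the values of MATN3 were higher in 4 of 5. The 2 higher genes were BCAN and HAPLN2, and HAPLN2 was not counted without donor 1 (0.98) or without the IL-1β library of that donor (0.98).

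The aggrecanase list had 7 tested genes, which were aggrecanases, their relatives and the metalloproteinase inhibitor gene TIMP3. Of these, ADAMTS9, a protease that cleaves aggrecan and versican, was the 1 differentially expressed gene. Its log2 fold change was 1.73 (SE 0.53, adjusted p = 0.048 from limma), at the edge of the threshold without a donor term. With the replicate block its adjusted p was 0.00417 from limma. Without the block it was not counted in 12 of the 15 fits with a library or donor left out. Across those 15 fits its log2 fold change was 1.46 to 2.05. The main aggrecanase genes, added here for their role after their values were seen, were below the minimum fold change, with 0.72 for ADAMTS4 (SE 0.16, adjusted p = 0.0131 from limma, higher in 5 of 5 donors) and 0.57 for ADAMTS5 (SE 0.22, adjusted p = 0.103 from limma, higher in 5 of 5 donors).

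Hyaluronan is the polymer to which aggrecan and link protein bind, and of its 8 tested synthases, receptors and degrading enzymes 1 was higher and 1 lower. HAS2, a hyaluronan synthase, was at 8.21 (SD 1.21, n = 5) and 11.18 (SD 0.54, n = 5), a log2 fold change of 2.98 (SE 0.51, adjusted p = 0.00336 from limma). CEMIP, which takes part in hyaluronan breakdown, was at 14.29 (SD 1.85, n = 5) and 11.01 (SD 0.42, n = 5), a log2 fold change of -3.28 (SE 0.72, adjusted p = 0.0116 from limma). CEMIP was not counted without donor 2 (-3.19) or donor 5 (-3.01). With the replicate block and all donors its adjusted p was 0.00394 from limma. CD44, named after its values were seen, was below the minimum fold change (-0.83, SE 0.18, adjusted p = 0.0103 from limma).

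Of 20 genes for the assembly and sulfation of chondroitin sulfate chains, 1 (5%) was differentially expressed, as against 6.68% of all tested genes. B3GALT6, an enzyme of the linker between core protein and chain, had a log2 fold change of 1.01 (SE 0.18, adjusted p = 0.00473 from limma), just over the minimum, and dropped under the threshold in 9 of the 15 fits with a library or donor left out, in which it ranged from 0.92 to 1.15. With the replicate block CSGALNACT1, an enzyme that starts the chain, was lower in addition (-1.35, adjusted p = 0.00811 from limma). Further genes had an adjusted p below 0.05 from limma but were below the minimum fold change, and are named after their values were seen. Higher were CHST11 (0.89), UGDH (0.63) and CHST12 (0.29), and lower were CHST3 (-0.89) and CSGALNACT2 (-0.69). The median over the 20 genes was -0.0047, with differences in both directions.

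Of 9 other SOX genes, SOX11 was the 1 differentially expressed gene, with a log2 fold change of 2.18 (SE 0.43, adjusted p = 0.00671 from limma). Among the differentially expressed SOX genes, SOX5 and SOX11 were thus higher and SOX6 and SOX9 lower. SOX15, named after its values were seen, was below the minimum fold change (0.88, adjusted p = 0.0243 from limma, higher in 5 of 5 donors). SOX8, the nearest relative of SOX9 in the list and named for that after its values were seen, was at -0.56 (adjusted p = 0.23 from limma).

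Of 26 signalling genes and transcription factors around chondrogenesis, FOXC1 was higher and GLI3 lower. These 2 genes are 7.69% of the 26, near the 6.68% of all tested genes. FOXC1, a forkhead factor of skeletal development, had a log2 fold change of 1.28 (SE 0.36, adjusted p = 0.0345 from limma). GLI3, a transcription factor of hedgehog signalling, had one of -1.19 (SE 0.30, adjusted p = 0.0209 from limma). FOXC1 was not counted in 10 and GLI3 in 8 of the 15 fits with a library or donor left out, where they ranged from 0.92 to 1.49 and from -1.42 to -0.97. With the replicate block and all donors, the adjusted p from limma was 0.0131 for FOXC1 and 0.00903 for GLI3. With the replicate block FGF18 (-1.04, adjusted p = 0.00868 from limma) and GLI2 (-1.01, adjusted p = 0.046 from limma) were also lower, which made 1 higher and 3 lower genes.

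Of 13 RUNX partners and osteogenic genes, 4 were lower and none higher without the block. DLX5 and DLX6, homeobox genes of bone and cartilage formation, had log2 fold changes of -1.64 (SE 0.31, adjusted p = 0.00534 from limma) and -1.40 (SE 0.35, adjusted p = 0.0194 from limma). DLX6 was not counted without donor 1 (-1.44), donor 2 (-1.18) or donor 5 (-1.25). With the replicate block and all donors its adjusted p was 0.0124 from limma. With the replicate block 2 genes of this list, ALPL (2.86, adjusted p = 8.64e-04 from limma) and RUNX3 (1.34, adjusted p = 0.0247 from limma), were higher in addition. The median of the list was -0.04.

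**Figure D5:**
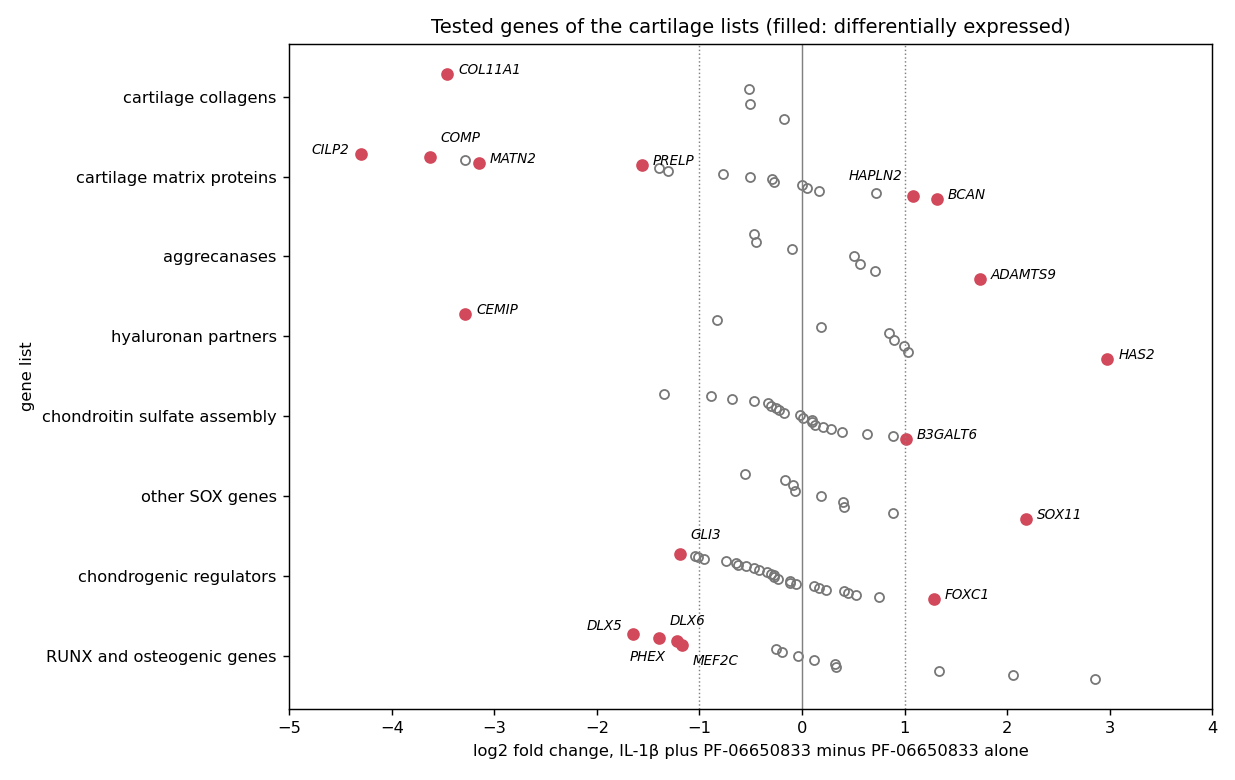
Log2 fold change of each tested gene of the 8 lists, with filled points and names for the 18 differentially expressed genes and dotted lines at -1 and 1. CILP2, COMP and COL11A1 lie farthest to the left and HAS2 farthest to the right among the filled points.

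Markers of cell types were read beside these results. Of the 7 chondrocyte markers, among them COL2A1 and COL9A1, all reads together came to 3 to 14 per library with inhibitor alone and 1 to 5 with IL-1β added, and COL9A1 was at 0 in all libraries. COL11A1, a cartilage collagen that is not among these markers, had 3553 to 16414 reads with inhibitor alone and 215 to 1680 with IL-1β added. Of the 7 tested tenocyte markers 3 were lower with IL-1β added, namely SCX (-3.24), MKX (-2.85) and TNC (-2.04), whose adjusted p-values from limma were 6.11e-04, 0.00554 and 0.0135. The others, COL1A1 (-1.38), COL1A2 (-1.28), THBS4 (-1.22) and DCN (1.01), were not differentially expressed, and DCN went the other way. The summed reads of the tenocyte list were 627578 to 1284483 with inhibitor alone and 199632 to 684760 with IL-1β added, and TNMD was at 0 in all libraries. Of the 3 pericyte and smooth muscle markers 2 were lower, RGS5 (-1.96, adjusted p = 0.0106 from limma) and DES (-2.98, adjusted p = 0.00546 from limma), and of the 2 adipocyte markers ADIPOQ was higher (3.11, adjusted p = 0.00543 from limma). The summed reads of these lists were 984 to 32288 and 3062 to 8540 for pericyte and smooth muscle, and 16 to 126 and 254 to 1990 for adipocyte. MYH11, with 836 to 30938 and 3010 to 8501 reads, made up most of the first sum and was not differentially expressed (-0.56). ADIPOQ, with 16 to 120 and 248 to 1985 reads, made up nearly all of the second. PLIN1 had 0 to 6 and 2 to 7 reads and was not differentially expressed. The endothelial list had 3 to 44 and 2 to 23 reads, the Schwann cell list 2 to 12 and 0 to 7, and the osteoblast list 111 to 312 and 34 to 100, with PHEX lower (-1.22, adjusted p = 0.0212 from limma) and IBSP at 0. Leucocyte markers other than CD14 had at most 3 reads, and the summed list 0 to 1461 and 0 to 1361. The markers that moved with the treatment were SCX, MKX, TNC, RGS5, DES, PHEX and ADIPOQ. Whether they have a part in the differences of ACAN, HAPLN3 and the SOX genes was not tested.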

How the data were processed

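RNA of 10 libraries was sequenced as paired-end reads. The authors checked reads with FastQC (version 0.11.9), assigned them to the EquCab3.0 transcriptome with Salmon (version 1.8) with GC-bias correction, imported them with tximport and used DESeq2 (version 1.36). The authors deposited normalized log2 values, whose form is that of a variance-stabilizing transformation, recognised from the shared lowest value of 3.433. The libraries may have been normalized together with others not used here, as 1 read came to an estimated normalized count of 1.05 to 1.42. This was not tested. Reads per gene were estimated by inverting the transformation and are approximate.

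The filter kept genes that exceeded the lowest value in 5 or more libraries. In R (version 4.3.3), limma (version 3.58.1) was run without a donor term, with its mean-variance trend and with Benjamini-Hochberg adjustment over all 17992 tested genes. Donors were taken from the sample titles. Deviations from the group means were correlated between both libraries of a donor (0.367 to 0.506 over 5 pairs), so fits with the donor as a replicate block are given beside. The mean for other pairs was -0.107, which the centring on group means largely fixes from the same-donor values, so it is no separate baseline. Donor differences were tested with limma's moderated F test in the fit with treatment and donor. The fits were tested on simulated data.

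The 10 genes, the lists and the tests were chosen with earlier results of these data known. Named were all 10 genes, the 2 largest increases and the 2 largest decreases among the differentially expressed genes of each list, IL6, and the 3 genes most correlated with each of ACAN, SOX6, SOX9 and RUNX2, of which 1 is not reported here. Alternatives were other filters, scales, normalizations and thresholds, no mean-variance trend, and leaving out each library or donor. For the treatment contrast, the fits with a library or donor left out had no donor term. The symbols COL3A1, HYAL1, CEMIP2, CHPF2, SLC35D1, SOX7 and BGLAP were not analysed here. RefSeq gene order came from another assembly (TB-T2T), so no positions are given.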

Additional observations from a re-analysis of the deposited data

Results flagged for a closer look

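In 5 of 49 gene and group combinations, 1 library lay far from the rest, and chance alone flags about 1 in 20, here 2.45. HAPLN1 was at 4.20 in donor 5 with inhibitor alone (about 3 reads) and at the value of 0 reads in the other 4. SOX5 was at 7.20 in donor 4 with inhibitor alone (about 116 reads), against 5.45 to 5.95 in the other 4, and this library is the one through which the SOX5 groups overlap. HAPLN2 was at 8.61 in donor 1 with IL-1β added, against 8.05 to 8.20. B3GALT6 was at 8.82 in donor 4 with IL-1β added, against 9.44 to 9.63. DLX6 was at 5.80 in donor 3 with inhibitor alone (about 28 reads), against 6.26 to 6.43.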

How the results depend on the processing

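The directions of the 9 tested genes of the set and of the named list genes held in every setting in which they were tested. In the treatment contrast, dropping the fold change minimum gave 2782 differentially expressed genes instead of 1202, and 30 list genes instead of 18. With the replicate block, which pairs the libraries of a donor, the counts were 1486 and 25, and with the replicate block but no limit on fold change, a combination added after the data were seen, they were 3996 and 44. The block changed no call of the set of 10. ADAMTS9 lost its call with no filter and with no mean-variance trend. Across the 15 fits with a library or donor left out, the counts were 747 to 1410 genes, 8 to 20 list genes and 3 to 5 genes of the set, the lowest without donors 1, 2 and 5 (747, 778 and 770 genes). Genes differing between donors numbered 496, and 68 to 833 in those fits, with 68 without the inhibitor library of donor 1, and none of the set was among them. Leaving out a donor also removes 2 libraries. The cause of the other changes was not tested. Values of MATN3, CHAD, HAPLN1 and, with IL-1β added, ACAN and SOX6 rest on few reads. So do those of SOX5 with inhibitor alone (23 to 116 reads).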
